A study of Mus musculus with 4 samples.

Results

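The genes described here are 32 endoplasmic reticulum (ER) chaperone and stress genes, chosen by symbol from a table of 24328 genes, and all 32 were found in it. They were measured as polyadenylated RNA of muscle stem cells, the satellite cells of skeletal muscle, which were fixed in the animal by paraformaldehyde (PFA) perfusion before the muscle was digested and the cells were sorted. Levels are in FPKM, fragments per kilobase of transcript scaled to library size, so levels of different genes can be compared per length. The YFP group held 2 libraries from mice of 7 months with the genotype Pax7CreERT2/+; ROSA26YFP/+. The DEK group held 2 libraries from mice of 4.5 months with the genotype Pax7CreERT2/+; H11DEK-EGFP/+. All 4 libraries thus carried the Pax7CreERT2 driver, a tamoxifen-inducible Cre under control of the satellite cell gene Pax7. Age, reporter and transgene locus went with the group, so their parts in any difference cannot be told apart. The labels do not say how many animals stand behind a library, and p-values measure only the spread between these libraries.

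The ER folds proteins bound for the membrane and for secretion. When unfolded proteins build up there, 3 sensors in its membrane respond: Atf6, which is cut to release a transcription factor, Ire1 (gene Ern1), which splices the RNA of the transcription factor Xbp1, and Perk (gene Eif2ak3), which phosphorylates the initiation factor eIF2α and so lowers protein synthesis while favouring translation of Atf4. Atf6 and Xbp1 raise chaperones and degradation factors, and Atf4 raises Ddit3, Trib3, Asns, Chac1 and Ppp1r15a. In satellite cells, phosphorylation of eIF2α by Perk is known to keep protein synthesis low during quiescence. The values here are RNA levels by gene symbol, so Xbp1 splicing, Atf6 cleavage and eIF2α phosphorylation were not measured.

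Of the 32 genes, 28 had an upstream sequence in the RefSeq promoter table (build GRCm38.p6, while the submitters' processing notes name mm9, so no coordinate links them), and Atf6, Derl1, Hyou1 and Manf had no entry. In the 250 bases before the annotated start, the ER stress element, the site through which Atf6 and Xbp1 act, was searched on both strands as CCAAT, a gap of 9 bases of any kind, and CCACG. It was found in 9 of the 28 genes, against 0.113% of 32851 windows of the same length. The 10 sites, 2 of them in Hsp90b1, are shown because the genes were chosen in part as known targets of the Atf6-Xbp1 arm. Each is read in the direction of the element, with its fixed letters in capitals.
Calr: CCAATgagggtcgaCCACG
Canx: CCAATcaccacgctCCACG
Creld2: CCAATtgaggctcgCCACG
Derl3: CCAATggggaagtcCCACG
Dnajc3: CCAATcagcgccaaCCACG
Hsp90b1, near site: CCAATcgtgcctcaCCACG
Hsp90b1, far site: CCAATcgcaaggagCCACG
Hspa5: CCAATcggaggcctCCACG
Pdia6: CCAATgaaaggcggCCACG
Syvn1: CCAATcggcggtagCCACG
A match is a description of letters and does not show a working site. The sites of Calr, Creld2 and Derl3 and the nearer site of Hsp90b1, which begins 107 bases before the start, lie opposite to the direction of the gene. The other 6 lie in the direction of the gene. The site nearest to a start is that of Syvn1, which begins 44 bases before it, and that of Hspa5 begins 65 bases before it.

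The sequences of 170 bases before the start are shown for the 2 genes that passed the test below, Calr and Ppp1r15a, and for Hspa5, the most abundant of the 32 in DEK. Capitals mark the ER stress element in Hspa5 and Calr (in Calr as its letters read along the gene), and in Ppp1r15a the letters TGACGTCA.
Hspa5, chr2:34771920-34772089, plus strand: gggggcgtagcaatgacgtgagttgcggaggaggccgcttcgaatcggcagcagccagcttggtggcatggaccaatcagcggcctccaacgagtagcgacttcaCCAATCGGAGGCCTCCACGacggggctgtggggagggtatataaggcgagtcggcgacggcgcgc
Calr, chr8:84846932-84847101, minus strand: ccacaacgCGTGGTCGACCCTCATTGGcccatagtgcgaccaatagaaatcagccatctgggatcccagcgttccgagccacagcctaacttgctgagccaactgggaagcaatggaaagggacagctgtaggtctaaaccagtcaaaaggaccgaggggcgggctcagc
Ppp1r15a, chr7:45526269-45526438, minus strand: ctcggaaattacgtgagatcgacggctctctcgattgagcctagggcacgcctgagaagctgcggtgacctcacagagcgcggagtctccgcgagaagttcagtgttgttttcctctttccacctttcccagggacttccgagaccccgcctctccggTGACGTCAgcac
The letters TGACGTCA, the palindromic cyclic AMP response element, were searched after the sequence had been seen. They were found in 1 of the 28 genes, Ppp1r15a, and in 1.55% of all windows. A second form of the ER stress element, ATTGG, a gap of 1 base and CCACG, was found in Herpud1 only among the 28 genes and in 0.0304% of all windows. The composite site bound by Atf4 with a C/EBP partner, TGATGNAA, was found in Asns, Chac1 and Herpud1 and in 3.45% of all windows. The Xbp1 site TGACGTGG was found in 0 of the 28 genes and in 0.563% of all windows.

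A test required 1 FPKM in 2 or more libraries, which 29 of the 32 genes met and Asns, Trib3 and Derl3 did not. Values of a group are given in the order of replicate 1 and replicate 2 throughout. By limma on log2(FPKM + 1), with adjustment over all 12179 tested genes, 2 of the 29 were higher in DEK at an adjusted p under 0.05, Calr and Ppp1r15a, and 0 were lower. Of all tested genes 4.57% were higher and 3.21% were lower by this rule, so 2 of 29 is near the share of all genes. At an unadjusted p under 0.05 limma gave 11 of the 29 higher and 0 lower, against 16.9% and 12.2% of all tested genes. Both DEK values lay above both YFP values for 17 of the 29, against 34.0% of all tested genes, and below them for 1, Herpud1, against 26.9%. The median log2 fold change was 0.28 over the 29 and 0.05 over all tested genes. Since the genes were chosen with earlier results known, these shares describe them and test nothing.

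**Figure D1:**
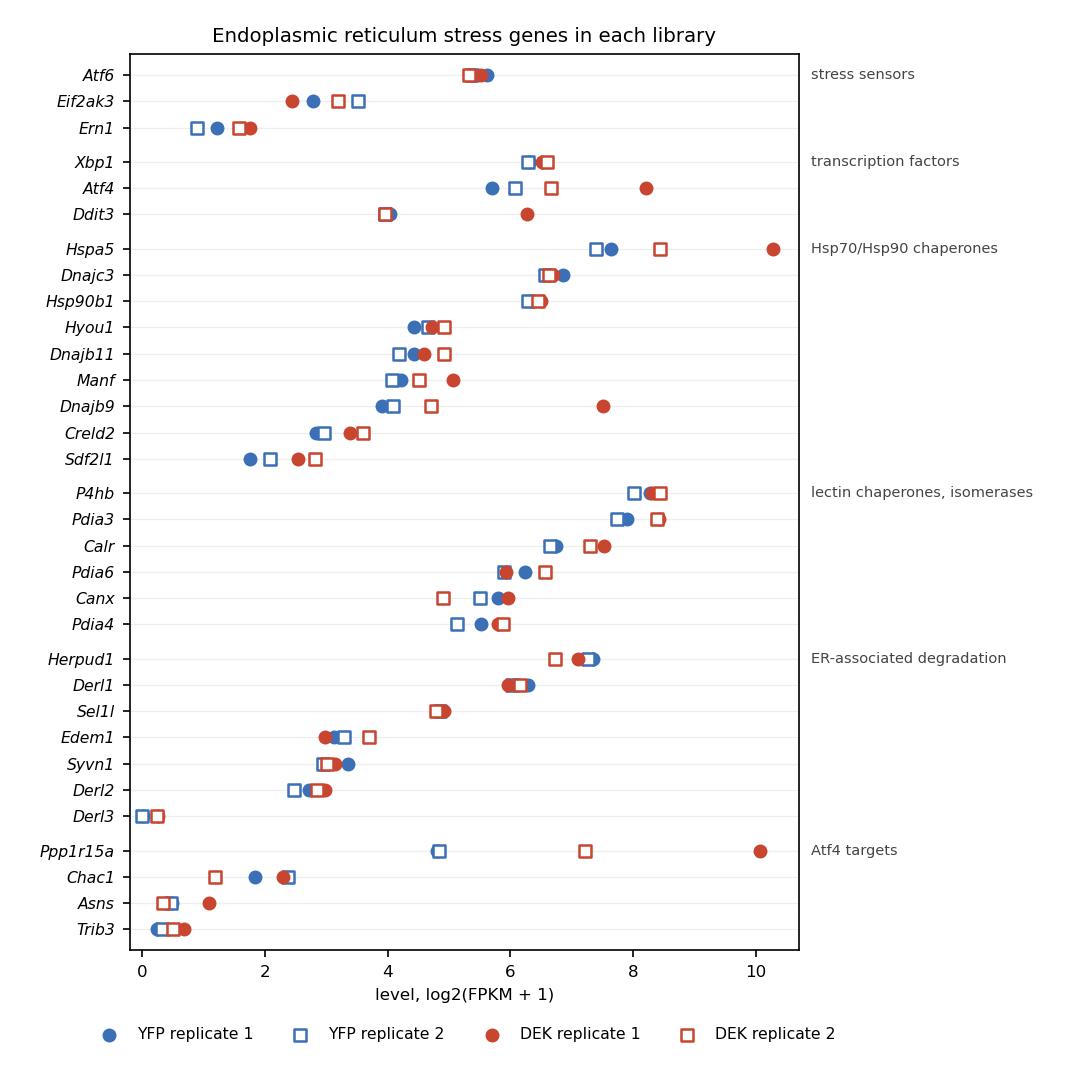
Level of each of the 32 genes, as log2(FPKM + 1) on the x axis, in each of the 4 libraries, with genes grouped by role (labels at the right) and ordered within a role by their mean in YFP. Hspa5, Dnajb9, Atf4, Ddit3 and Ppp1r15a stand far to the right in DEK replicate 1, while most other genes have their 4 values close together.

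Levels in the YFP libraries spanned a wide range. The disulphide isomerase P4hb led the 32 genes with 306 and 257 FPKM in YFP replicates 1 and 2, followed by Pdia3, Hspa5 and Herpud1, and neighbours among these 4 did not overlap in YFP. From Hsp90b1 at a mean of 78.4 FPKM down to Pdia4 at 39.4 FPKM lay 8 genes whose neighbours overlapped. The Atf4 targets Asns, at 0.410 and 0.387 FPKM, and Trib3, at 0.180 and 0.253 FPKM, stood near the bottom, with Derl3 at 0.0178 and 0 FPKM. In DEK the highest mean was that of Hspa5 and the second that of Ppp1r15a, which ranked 16 in YFP.

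None of the 3 sensors passed the test at the level of RNA. Atf6 measured 48.1 and 40.5 FPKM in the YFP libraries against 44.9 and 38.9 FPKM in the DEK libraries (log2 fold change -0.08, 95% interval -0.47 to 0.32, limma adjusted p = 0.782). Eif2ak3 measured 5.89 and 10.4 FPKM in the YFP libraries against 4.45 and 8.10 FPKM in the DEK libraries (log2 fold change -0.33, interval -1.18 to 0.51). For both genes the groups overlapped, and the wide interval of Eif2ak3 goes with replicates that differed within each group. Ern1, the gene of Ire1, was low, with 1.33 and 0.867 FPKM in the YFP libraries against 2.39 and 2.00 FPKM in the DEK libraries. Its second YFP value was under 1 FPKM, so Ern1 met the low filter through DEK. Both DEK values of Ern1 lay above both YFP values, and the difference did not pass (log2 fold change 0.61, SE 0.23, limma adjusted p = 0.144).

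Among the transcription factors, Atf4 measured 51.1 and 66.2 FPKM in the YFP libraries against 294 and 99.7 FPKM in the DEK libraries. Both DEK libraries were above YFP, the first far more so (log2 fold change 1.54, SE 0.48, limma adjusted p = 0.102). Ddit3, which encodes the factor Chop of prolonged ER stress, stood at 15.5 and 14.6 FPKM in YFP, at 76.3 FPKM in DEK replicate 1 and at 14.5 FPKM in DEK replicate 2. Only DEK replicate 1 was high, and the second DEK library lay just under both YFP libraries (log2 fold change 1.11, SE 0.68, limma adjusted p = 0.328). Xbp1 measured 77.6 and 77.0 FPKM in the YFP libraries against 90.2 and 95.9 FPKM in the DEK libraries. Its DEK values were close to each other and above YFP (log2 fold change 0.26, SE 0.13, limma adjusted p = 0.235).

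Among the Hsp70 and Hsp90 chaperones and their co-chaperones 0 of 9 passed, while 8 had both DEK values above both YFP values (34.0% of all tested genes) and 5 were higher at an unadjusted p under 0.05 by limma (16.9% of all tested genes). Hspa5, which encodes BiP, the Hsp70 chaperone that holds the sensors inactive, measured 198 and 168 FPKM in the YFP libraries against 1243 and 347 FPKM in the DEK libraries (182.7 ± 21.5 and 795 ± 634 FPKM, SD, n = 2 each). The groups did not overlap, but the DEK libraries differed 3.59-fold, and the log2 fold change of 1.84 (SE 0.55) had a limma adjusted p = 0.0950. Dnajb9, a J-domain co-chaperone that brings BiP to Ire1, measured 14.0 and 15.9 FPKM in the YFP libraries against 181 and 25.2 FPKM in the DEK libraries. It showed the same split, with a 7.19-fold difference between the DEK libraries (log2 fold change 2.12, SE 0.82, limma adjusted p = 0.156).

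Hsp90b1, the ER Hsp90 also called Grp94, measured 79.3 and 77.4 FPKM in the YFP libraries against 88.8 and 85.9 FPKM in the DEK libraries (log2 fold change 0.15, interval -0.16 to 0.47). Its shift was thus small in both DEK libraries. By the exact letters searched, its upstream window held 2 matches to the ER stress element and that of Hspa5 held 1. Near matches were not counted. Sdf2l1, a partner of BiP, was low, with 2.39 and 3.24 FPKM in the YFP libraries against 4.84 and 6.05 FPKM in the DEK libraries. Creld2, an ER isomerase, measured 6.10 and 6.81 FPKM in the YFP libraries against 9.46 and 11.1 FPKM in the DEK libraries. The secreted ER protein Manf measured 17.7 and 15.9 FPKM in the YFP libraries against 32.5 and 21.9 FPKM in the DEK libraries. In these 3 genes both DEK values lay above both YFP values. The log2 fold changes of Sdf2l1, Creld2 and Manf were 0.76, 0.59 and 0.64, and the limma adjusted p was 0.0908, 0.10 and 0.123. Dnajb11, a BiP co-chaperone, and Hyou1, which exchanges its nucleotide, had log2 fold changes of 0.45 and 0.28. Dnajc3, a co-chaperone also called p58IPK, was the 1 gene of this role whose groups overlapped (log2 fold change -0.05, interval -0.42 to 0.32).

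The lectin chaperones and disulphide isomerases held the steadier of the 2 genes that passed. Calr, which encodes the calcium-binding lectin chaperone calreticulin, measured 106 and 99.3 FPKM in the YFP libraries against 183 and 156 FPKM in the DEK libraries (102.8 ± 5.06 and 169.7 ± 19.3 FPKM, SD, n = 2 each). Both DEK libraries were well above both YFP libraries, and the gene rose with a log2 fold change of 0.71 (SE 0.15, limma adjusted p = 0.0422). The call is close to the threshold: with any single library left out and the tested genes held the same it was lost, at a limma adjusted p = 0.141 or 0.222 without the first or second YFP library and 0.175 or 0.0846 without the first or second DEK library, while the log2 fold change stayed between 0.60 and 0.83. Over the 18 alternatives its limma adjusted p ran from 0.0259 to 0.222, and 6 of them kept the call. Calnexin (Canx), the membrane-bound partner of calreticulin in the same cycle, measured 54.7 and 44.5 FPKM in the YFP libraries against 61.5 and 29.0 FPKM in the DEK libraries. Its DEK values lay on either side of YFP (log2 fold change -0.22, interval -1.06 to 0.62).

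Pdia3, the isomerase that works with these lectins, measured 237 and 211 FPKM in the YFP libraries against 341 and 335 FPKM in the DEK libraries. The DEK libraries were nearly equal and above YFP, and the difference narrowly missed the threshold (log2 fold change 0.59, SE 0.14, limma adjusted p = 0.0566). Pdia4 measured 44.7 and 34.1 FPKM in the YFP libraries against 54.7 and 57.7 FPKM in the DEK libraries (log2 fold change 0.51, limma adjusted p = 0.121). P4hb stood at 314 and 345 FPKM in DEK, with a log2 fold change of 0.23. For Pdia6, with 74.5 and 58.6 FPKM in the YFP libraries against 60.0 and 93.1 FPKM in the DEK libraries, the groups overlapped (log2 fold change 0.18, interval -0.42 to 0.77).

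ER-associated degradation, which draws misfolded proteins out of the ER for the proteasome, had no gene that passed. Of its 6 tested genes 0 were called in either direction and 0 had an unadjusted p under 0.05 by limma, with log2 fold changes from -0.39 to 0.31. Herpud1, a scaffold of the degradation complex and a gene on which the Atf6-Xbp1 and Atf4 arms both act, measured 162 and 152 FPKM in the YFP libraries against 135 and 105 FPKM in the DEK libraries. Both DEK values were below both YFP values, so Herpud1 lay lower in DEK while Hspa5 and Calr lay higher (log2 fold change -0.39, SE 0.17, limma adjusted p = 0.182). The ubiquitin ligase Syvn1 and its partner Sel1l had log2 fold changes of -0.07 (interval -0.58 to 0.44) and -0.02 (interval -0.37 to 0.33). The mannosidase-like Edem1 had 0.13, and the derlins Derl1 and Derl2, membrane parts of the degradation machinery, had -0.10 and 0.31. Derl3, the member of that family known from secretory cells, was at 0.194 and 0.191 FPKM in DEK, under the level required for a test.

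Of the 4 named Atf4 targets other than Ddit3, which is given above with the transcription factors, 2 were tested and 1 rose. Ppp1r15a, also called Gadd34, encodes the subunit that directs a phosphatase to eIF2α and so reverses the action of Perk. It measured 27.0 and 27.5 FPKM in the YFP libraries against 1072 and 148 FPKM in the DEK libraries (27.3 ± 0.315 and 609.8 ± 654 FPKM, SD, n = 2 each). Both DEK libraries were far above YFP, and the gene rose with a log2 fold change of 3.82 (SE 0.83, limma adjusted p = 0.0487). With the first or second YFP library left out the call was lost (limma adjusted p = 0.162 or 0.217), as it was without DEK replicate 1 (0.0798), and it held without DEK replicate 2 (0.0191), with a log2 fold change of 2.39 without DEK replicate 1 and 5.25 without DEK replicate 2. Over the 18 alternatives its limma adjusted p ran from 3.09e-05 to 0.325, and 5 of them kept the call. By contrast Chac1, a glutathione-degrading enzyme, measured 2.59 and 4.18 FPKM in the YFP libraries against 3.90 and 1.28 FPKM in the DEK libraries, with overlapping groups (log2 fold change -0.37, interval -1.35 to 0.62). The pseudokinase gene Trib3 was at 0.615 and 0.426 FPKM in DEK. The asparagine synthetase gene Asns was at 1.14 and 0.274 FPKM in DEK. Trib3 lay above its YFP values in both DEK libraries and Asns in DEK replicate 1, where they were 2.85 and 2.86 times their YFP means. In the same library Chac1 was 1.15 times its YFP mean, and Atf4, Ddit3 and Ppp1r15a were 5.01, 5.08 and 39.3 times theirs. The part of Atf4 in these values was not tested.

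**Figure D2:**
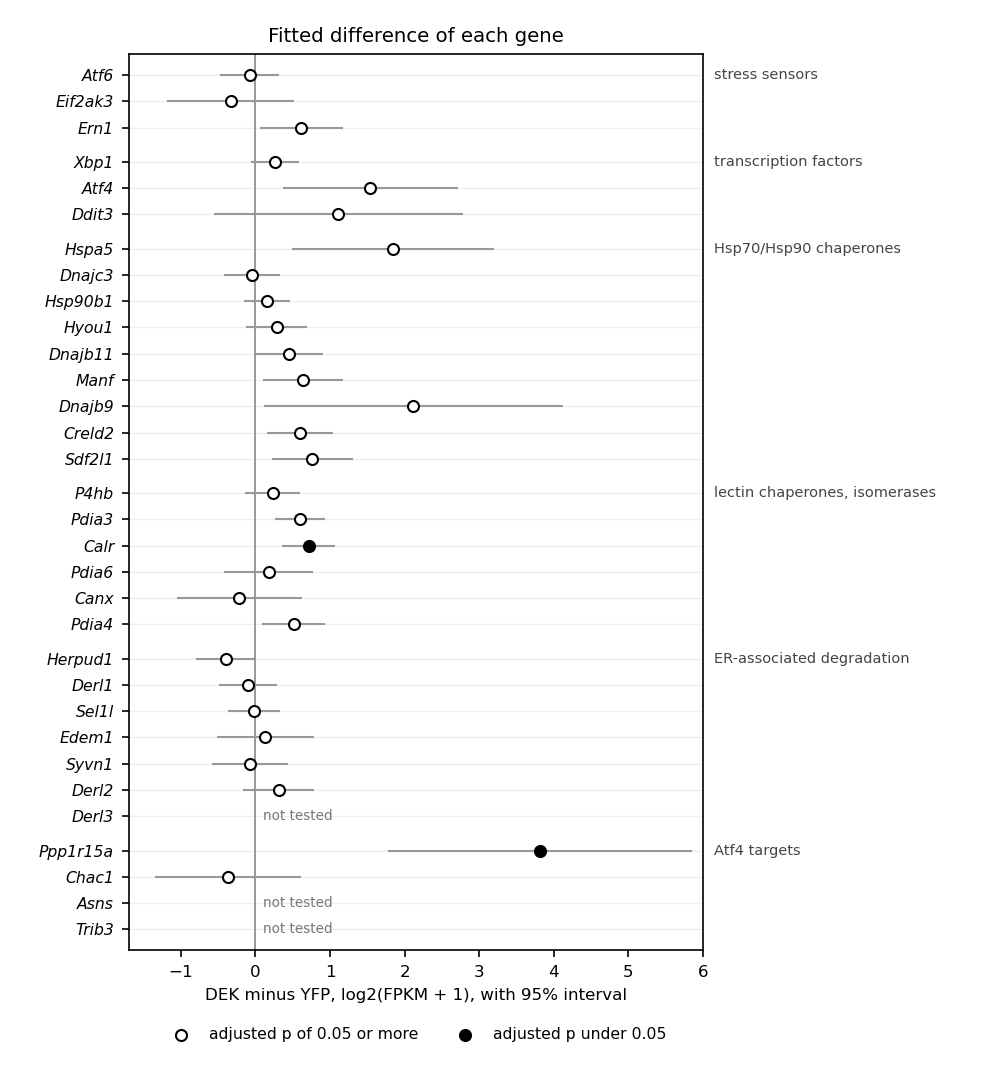
Fitted difference of DEK minus YFP for each tested gene, on the log2(FPKM + 1) scale, as points with 95% intervals from limma. Filled points, Calr and Ppp1r15a, passed at an adjusted p under 0.05, and the wide intervals of Hspa5, Dnajb9, Ddit3 and Ppp1r15a go with the gap between the 2 DEK libraries.

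The 2 arms can be set side by side. The 22 chaperone and degradation genes of the Atf6-Xbp1 arm, 21 of them tested, had a median difference from the YFP mean of 0.28 in DEK replicate 1 and 0.38 in DEK replicate 2 on the log2 scale. For Atf4 and its targets, of which 4 of 6 were tested, the medians were 2.29 and 0.36. Over all tested genes they were 0.01 and 0.09. In each arm 1 gene passed, Calr among 21 tested and Ppp1r15a among 4, while 4.57% of all tested genes were higher by this rule. The low filter kept out 2 of the 6 genes of the second arm, so its median covers the more abundant members only.

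The 2 DEK libraries lay far apart in a few genes of both arms. In 5 of the 29 tested genes, Atf4, Ddit3, Hspa5, Dnajb9 and Ppp1r15a, the absolute difference between the DEK libraries was larger than in 99% of all tested genes, and each time DEK replicate 1 was the higher. On the log2 scale DEK replicate 1 exceeded DEK replicate 2 by 1.55 for Atf4, 2.32 for Ddit3, 1.84 for Hspa5, 2.80 for Dnajb9 and 2.85 for Ppp1r15a. The same 5 genes differed by 0.02 to 0.37 between the YFP libraries. Calr, Pdia3, Xbp1 and Hsp90b1, in contrast, differed by 0.23 or less between the DEK libraries, against a median of 0.20 over all tested genes. Other members also had wide gaps, in both directions. DEK replicate 1 minus DEK replicate 2 was 1.10 for Chac1, 1.06 for Canx, -0.74 for Eif2ak3, -0.71 for Edem1 and -0.62 for Pdia6. DEK replicate 1 was the higher in 18 of the 29. With DEK replicate 2 left out, the log2 fold changes of the 5 genes past the 99% mark ran from 2.27 for Ddit3 to 5.25 for Ppp1r15a. With DEK replicate 1 left out, they ran from -0.05 for Ddit3 to 2.39 for Ppp1r15a. These genes were singled out by a wide gap with DEK replicate 1 the higher, so their calls without DEK replicate 2 follow from that choice. Each fit of this kind also rests on 1 DEK library, so its calls are no separate result. When the filter on low values was redone on the 3 libraries left, 7 members were called without DEK replicate 2 (3.16% of all tested genes) and 2 without DEK replicate 1, Hspa5 and Ppp1r15a (1.50% of all tested genes).

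**Figure D3:**
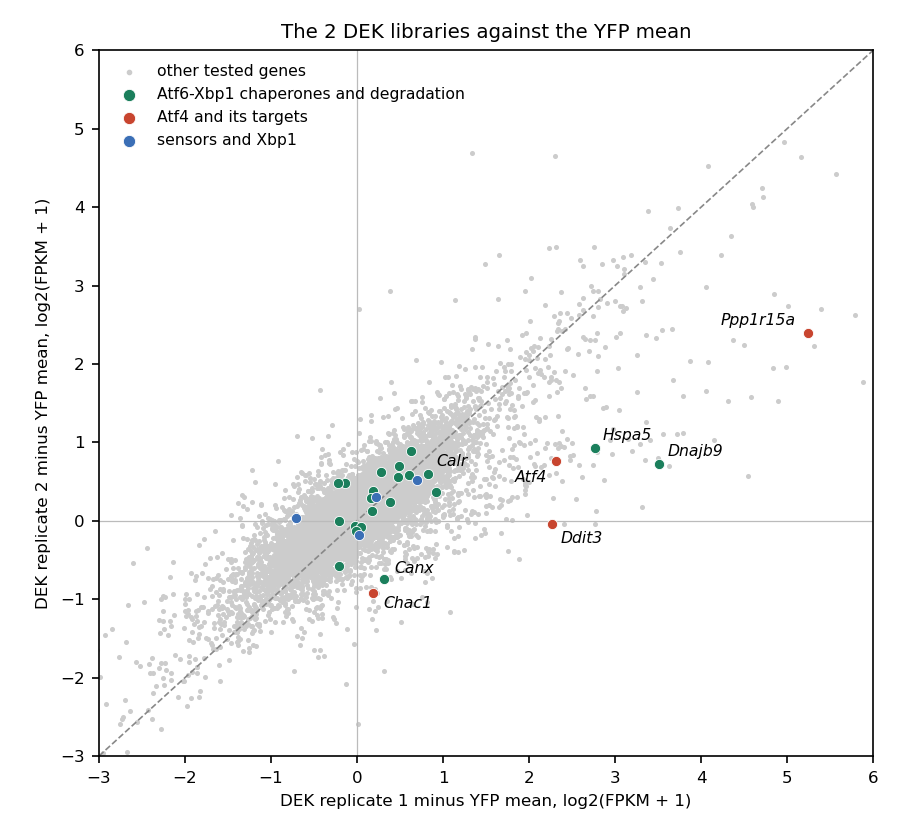
Difference of DEK replicate 1 (x axis) and DEK replicate 2 (y axis) from the YFP mean, on the log2(FPKM + 1) scale, for all tested genes in grey and the 29 tested genes described here in colour. The dashed line marks equal differences, 18 genes lie outside the axes, and Ppp1r15a, Dnajb9, Hspa5, Atf4 and Ddit3 lie far to its right.

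Other gene groups moved along with that split. The 14 cytosolic heat shock genes on a list written from general knowledge summed to 1590 and 1539 FPKM in YFP and to 13153 and 3641 FPKM in DEK replicates 1 and 2. Of these genes 3 rose by limma, against 4.57% of all tested genes. The highest means over the 4 libraries, set by the DEK values, were those of Hspb1, with 132 and 135 FPKM in the YFP libraries against 4338 and 903 FPKM in the DEK libraries, and Hspa1a, with 4.91 and 3.41 FPKM in the YFP libraries against 3419 and 654 FPKM in the DEK libraries. The 19 immediate early genes, 6 of which met the low filter only through DEK, summed to 637 and 549 FPKM in YFP and to 11867 and 2839 FPKM in DEK, with Egr1 and Ier2 the highest by their mean over the 4 libraries. Dek itself, the gene of the transgene, measured 512 and 504 FPKM in the YFP libraries against 3196 and 1639.5 FPKM in the DEK libraries, so the first DEK library was the higher in Dek as well. Their part in the differences of the ER genes was not tested.

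The sorted cells carried satellite cell markers in all libraries: the 10 markers summed to 1453 and 1375 FPKM in YFP and to 1415 and 1866 FPKM in DEK. Sdc4 and Myf5 led them, with log2 fold changes of 0.03 and -0.35. Both DEK values lay above both YFP values in 5 of the 10 and below in 1, against 34.0% and 26.9% of all tested genes. By limma 1 of the 10 rose and 0 fell, against 4.57% and 3.21% of all tested genes. Markers of other cells were counted over the whole table with no filter, because most endothelial and leukocyte markers met the low filter only through DEK. Over the table, both DEK values lay above both YFP values in 24.8% of genes and below them in 16.1%. For the endothelial markers they lay above in 16 of 16, with sums of 81.5 and 77.4 FPKM in YFP and of 352 and 287 FPKM in DEK. Of these 16 markers 11 were under 1 FPKM in both YFP libraries, and Flt1, Kdr and Ptprb were listed at 0 there. Tek, the highest by its mean over the libraries, made up most of the YFP sums. It measured 55.9 and 56.7 FPKM in YFP against 78.8 and 66.5 FPKM in DEK (log2 fold change 0.36). Fabp4, the next, measured 1.32 and 0.330 FPKM in YFP against 53.9 and 49.0 FPKM in DEK. The macrophage and leukocyte markers had 13 of 13 above, with sums of 2.91 and 27.6 FPKM in YFP and of 215 and 205 FPKM in DEK. Of these 13 markers 10 were under 1 FPKM in both YFP libraries, with Adgre1, C1qa, C1qb and Lyz1 listed at 0. The erythroid markers had 8 of 9 above, with sums of 8.04 and 0.527 FPKM in YFP and of 39.4 and 357 FPKM in DEK. The plasma cell markers, a cell type with a large ER, had 5 of 9 above and 1 below (7.98 and 8.33 FPKM in YFP, 13.4 and 24.4 FPKM in DEK). The remaining lists were mixed. Of the fibro-adipogenic markers 6 of 11 lay above and 3 below, while their sums were 1003 and 804 FPKM in YFP and 678 and 746 FPKM in DEK. The pericyte and smooth muscle markers had 3 of 10 above and 4 below (883 and 909 FPKM, then 664 and 981 FPKM). The mature myofibre markers had 5 of 10 above and 3 below (101 and 87.9 FPKM, then 113 and 63.4 FPKM). Between the 2 DEK libraries the endothelial and leukocyte sums were similar, while the erythroid sums lay far apart, at 39.4 and 357 FPKM. In bulk RNA more cells of a type and more RNA per cell cannot be told apart, and the part of these cells in Calr, Pdia3 or the other ER genes was not tested.

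The remaining genes of the pathway were taken from 5 lists, which were chosen with earlier results of these data known. The genes named from each list are those with the smallest p, so they do not stand for their list. The list medians ran from -0.14 to 0.19 against 0.05 for all tested genes. Of 19 other ER folding genes 1 rose and 0 fell by limma (median log2 fold change 0.08). The gene that rose was Nucb2, which encodes a calcium-binding secretory protein, with 10.9 and 7.57 FPKM in the YFP libraries against 19.5 and 22.5 FPKM in the DEK libraries (log2 fold change 1.12, adjusted p = 0.0371). Serp1, a stress-induced factor that protects newly made membrane proteins, measured 103 and 88.0 FPKM in the YFP libraries against 234 and 149.9 FPKM in the DEK libraries, without passing (adjusted p = 0.0614). Ero1l, the oxidase that feeds the disulphide isomerases, and Fkbp2 had log2 fold changes of 0.45 and 0.24. Of 15 other degradation genes 0 passed, with 1 higher and 3 lower at an unadjusted p under 0.05 by limma (median -0.14). The lowest p in that list was that of the ubiquitin ligase Rnf139 (log2 fold change -0.62, limma adjusted p = 0.0594), followed by Edem2 (-0.43), Rnf5 (-0.39) and Os9 (0.44). Degradation genes, members and others alike, thus held 0 that passed among 21 tested, which is near the share of all genes (4.57% higher and 3.21% lower).

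In the translocation and glycosylation machinery, which brings proteins into the ER and adds their first sugars, 0 of 22 passed, with 3 higher and 1 lower at an unadjusted p under 0.05 by limma (median 0.14). The oligosaccharyltransferase subunit Stt3a, the signal peptidase subunit Spcs3 and the signal receptor gene Srpr had log2 fold changes of 0.49, 0.58 and 0.44, and the translocon-associated Ssr2 had -0.62. Among 15 transducers and relatives of the sensors 1 rose and 1 fell by limma, against 4.57% and 3.21% of all tested genes. Traf2, an adaptor that binds activated Ire1, rose from 16.9 and 15.4 FPKM in YFP to 34.8 and 35.6 FPKM in DEK (log2 fold change 1.08, SE 0.15, limma adjusted p = 0.0162). Map3k5, the kinase Ask1 that acts after Traf2 toward Jnk, fell from 11.8 and 12.8 FPKM to 6.58 and 6.68 FPKM (log2 fold change -0.80, SE 0.17, limma adjusted p = 0.0443). The successive members of that branch therefore went in opposite directions, each with near-equal DEK libraries. The death genes Bbc3 and Bcl2l11 had log2 fold changes of -1.01 and 0.59 and missed the threshold (limma adjusted p = 0.0737 and 0.107).

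Of the other Atf4 target genes 26 of 30 were tested (median 0.19). By limma 0 rose and 3 fell, against 4.57% and 3.21% of all tested genes. Vldlr, a lipoprotein receptor, fell from 155 and 141 FPKM to 58.9 and 63.1 FPKM (log2 fold change -1.26, SE 0.14, adjusted p = 0.00882). Gpt2, a mitochondrial alanine transaminase, and Psat1, an enzyme of serine synthesis, fell with log2 fold changes of -1.41 (SE 0.21, limma adjusted p = 0.0206) and -0.84 (SE 0.18, limma adjusted p = 0.0461). The alanyl-tRNA synthetase gene Aars had 0.74 (limma adjusted p = 0.0692). The tested genes of this list held 4 higher and 5 lower at an unadjusted p under 0.05 by limma, against 16.9% and 12.2% of all tested genes. Atf4 RNA was higher in both DEK libraries, and its part in these differences was not tested.

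**Figure D4:**
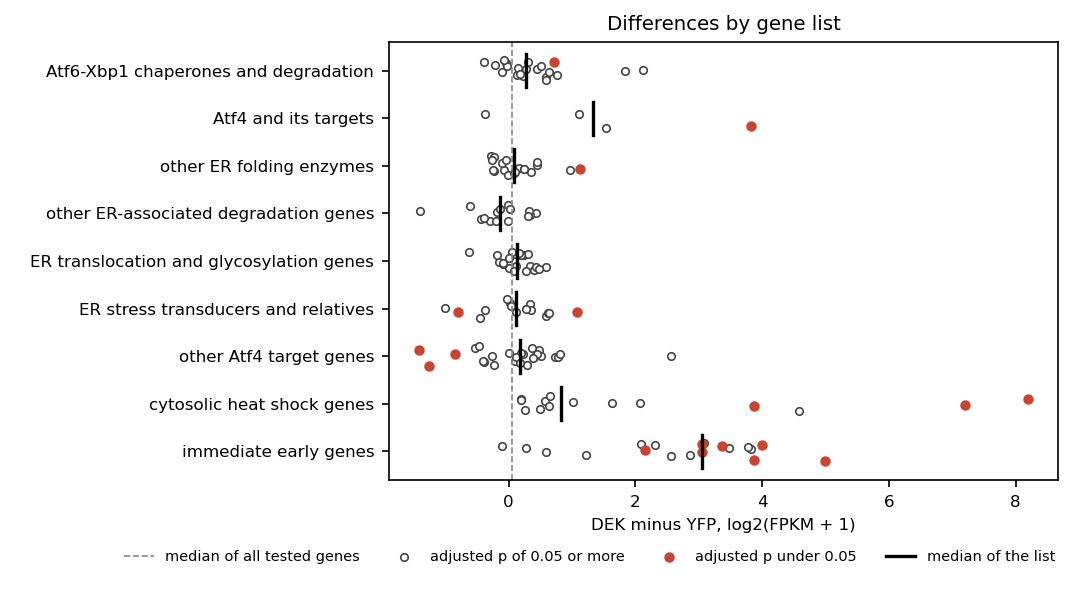
Fitted differences of DEK minus YFP on the log2(FPKM + 1) scale (x axis) for the tested genes of each list (rows), with points scattered vertically so that they can be seen, filled where the adjusted p was under 0.05, and a bar at each list's median. The ER lists other than Atf4 and its targets have medians from -0.14 to 0.28, near the dashed line at 0.05 for all tested genes, while the immediate early genes have a median of 3.05.

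The 8 tested genes with an ER stress element in their upstream sequence ran from -0.22 for Canx to 1.84 for Hspa5, with a median log2 fold change of 0.17, and 4 of them had both DEK values above both YFP values. The 17 tested genes with a sequence but no such element ran from -0.39 for Herpud1 to 3.82 for Ppp1r15a, with a median of 0.45. Of these, 11 had no overlap in that direction, against 34.0% of all tested genes for both counts. This second set pools the arms, with Atf4, Ddit3, Chac1 and Ppp1r15a, the sensors Ern1 and Eif2ak3, and Xbp1. It also holds Herpud1, which has the second form of the element. The medians of the sets thus do not compare like genes. Within the first set Hspa5 and Calr lay highest, Creld2 had 0.59, and Pdia6, Hsp90b1, Dnajc3, Syvn1 and Canx lay between -0.22 and 0.18.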

How the data were processed

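STAR 2.5.3a and StringTie 1.3.3, with R 3.4.1 and build mm9, are named in the submitters' processing notes. Roles, settings, annotation and filters are not given in the sources used here. Values of the deposited table, 1 for each symbol in each library, were read as FPKM computed by the authors. The unit is an inference from values that are not whole and sum to 541183 to 545123 in a library, unlike TPM or CPM over a full annotation. Read depth is unknown, so no detection limits are given. All 4 value columns were used. Genes reaching 1 FPKM in 2 or more libraries were tested on log2(FPKM + 1) with limma 3.58.1 in R 4.3.3 (variance trend, no covariates, two-sided, Benjamini-Hochberg over all genes tested, call at an adjusted p under 0.05). The added 1 understates changes of low genes. The fit was run on simulated data with known changes. That run did not mimic an outlying DEK library, so it says nothing about the member calls. Rn45s, a ribosomal RNA precursor, made up 11.8% and 15.7% of the YFP columns, against 5.15% and 5.55% of the DEK columns. Members, lists and alternatives were chosen with earlier results of these data known. All 32 members are named, and of each other pathway list up to 4 genes with the smallest p. Of the heat shock, immediate early, satellite cell and endothelial lists the 2 genes with the highest mean over the 4 libraries are named. Endothelial and leukocyte markers at 0 in both YFP libraries are named for that value. Nploc4 and Atf3 were chosen after their values were seen. Alternatives were each library left out (with the same genes, or filtered anew), a replicate block, a pseudocount of 0.1 or 5, no low filter or 5 FPKM, TMM scaling, quantile normalization, Rn45s removed with rescaling, and limma without trend or with robust estimation. Promoter sequences were matched by symbol.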

Additional observations from a re-analysis of the deposited data

How the results depend on the processing

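With every library left out in turn, limma called 0 to 5 members higher, and 0 to 7 when the low filter was applied to the 3 remaining libraries; the lone library of a group is then taken to vary like the other group. Over all genes the calls numbered 0 to 184 on the same genes, against 948, and with the filter redone 168 or 83 with the first or second YFP library left out and 302 or 780 with the first or second DEK library left out. With either filter the highest number of members came from the fit without DEK replicate 2, where DEK replicate 1 stands alone for its group. With the replicate number as a block limma called 618 genes and 1 member, Ppp1r15a (Calr at an adjusted p = 0.0667). The labels do not say that a number pairs libraries, and same-numbered libraries deviated together with r = 0.06 across genes. The count of members was 1 with an added 0.1 or 5, and 0 with no low filter (106 genes in all), quantile normalization, Rn45s removed or no variance trend; the cause was not tested. It stayed at 2 with TMM scaling and robust estimation, where Pdia3 passed in place of Ppp1r15a. With 5 FPKM required it stayed at 2, Calr and Ppp1r15a. By limma 0 members were called lower in any of the 18 alternatives, with 0 to 3 lower at an unadjusted p under 0.05. The median of the Atf6-Xbp1 genes was 0.15 with Rn45s removed, which moved the median of all tested genes from 0.05 to -0.07, and ran from 0.21 to 0.38 with a library left out. Of the 29 tested genes 17 kept a positive and 1 a negative log2 fold change in every alternative that tested them, and 11, among them Ddit3, took both signs. The share of higher genes among all calls was 58.8%, 51.6% with TMM scaling, 48.6% with quantile normalization and 42.5% with Rn45s removed.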

Other observations

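The 2 pathway genes outside the naming rule named here had DEK libraries that lay far apart. Atf3, a transcription factor induced by Atf4 and also an immediate early gene, measured 0.762 and 1.01 FPKM in the YFP libraries against 43.0 and 1.79 FPKM in the DEK libraries (log2 fold change 2.56, limma adjusted p = 0.208). Nploc4, a cofactor of the segregase Vcp in ER-associated degradation, measured 33.6 and 32.3 FPKM in the YFP libraries against 5.27 and 25.7 FPKM in the DEK libraries (log2 fold change -1.39, limma adjusted p = 0.200). DEK replicate 1 was thus the library farther from YFP in both, upward for Atf3 and downward for Nploc4.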
